A study of Mus musculus with 14 samples.

Results

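The 8 chemokine receptor genes Cxcr3, Cxcr4, Cxcr6, Ccr1, Ccr2, Ccr4, Ccr7 and Ccr8 were read on every probe set annotated to them, 13 probe sets in all, out of 18194 genes named on the array. The data are 14 Affymetrix arrays of RNA from mouse Th1 cells, which secrete interferon gamma, and Th2 cells, which secrete interleukin 4. In the series Trpm4, an ion channel opened by calcium, was inhibited in each cell type to see how gene expression changes. T cells had been driven to the Th1 or Th2 type over a culture of weeks, and the strain and age of the mice were not used here.

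In each cell type there was 1 array for each of 7 conditions. One array had no treatment listed and is called untreated here. A pair had siRNA against Thy1, a surface glycoprotein that serves as the control target, or against Trpm4. Another pair came from cells infected with a retrovirus carrying the vector only or a dominant negative (DN) Trpm4, each labelled as stimulated for 4 h and again for 12 h. The stimulus is not named in the labels, and no time is listed for the untreated and siRNA arrays. Each condition had 1 array, so tests were run over pairs of arrays whose labels differed only in the contrast, or on averages for retrovirus. The p-values measure only the spread between these arrays or averages, which may be technical. In these bulk samples fewer cells of a type and less RNA per cell cannot be told apart.

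Chemokine receptors are G protein-coupled receptors that steer leukocytes along gradients of small secreted proteins. Through inhibitory G proteins they activate phosphoinositide 3-kinase, Rac and integrins, and arrestins and G protein-coupled receptor kinases switch them off. As helper T cells polarise they exchange Ccr7, the receptor that brings naive cells into lymph nodes, for receptors of inflamed tissue. Cxcr3 is the receptor usually linked to Th1 cells, and Ccr4 and Ccr8 are the ones usually linked to Th2 cells.

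The labels were checked on genes that define the cells. Signal below is given as log2 of the quantile-normalised intensity plus 16, a scale with a floor at 4 and a median of 5.39. Interleukin 4 (Il4) read 4.25 to 5.40 in the 7 Th1 arrays and 8.05 to 12.82 in the 7 Th2 arrays, and Gata3 read 7.89 to 8.61 and 10.82 to 11.50. Ifng read 10.71 to 13.41 in Th1 arrays and 5.48 to 10.70 in Th2 arrays. Not every such gene followed the labels. Tbx21 had a median of 9.78 in Th1 and 9.84 in Th2 arrays. In the siRNA arrays it read 8.79 and 8.73 in Th1 against 9.45 and 9.46 in Th2 cells, and Il18rap was likewise higher in Th2 cells there. Il13 read 10.16 in both Th1 siRNA arrays and 8.28 in the untreated Th2 array. In limma 3 of 5 Th1 genes were higher in Th1 cells and 4 of 4 Th2 genes were lower (adjusted p under 0.05). Il4, among the latter, passed the filter on low signal only through the Th2 arrays, where it is high. Its call therefore adds nothing to this check. The targeted genes went with the siRNA labels: Trpm4 was lower with its siRNA by 0.72 in Th1 and 0.63 in Th2 cells, and Thy1 was higher there than with Thy1 siRNA by 1.34 and 2.10. With DN Trpm4 against vector, Trpm4 signal differed by 2.59 (12 h) and 0.60 (4 h) in Th1 cells but by -0.21 (12 h) and 0.09 (4 h) in Th2 cells, and it was not tested whether the probes read the construct. In 6 arrays, all Th2 retrovirus arrays and the Th1 retrovirus arrays of 4 h, the 3′ probe set of the Gapdh control exceeded the 5′ probe set by 5.43 to 5.91, against -0.25 to 0.04 in the other 8, a measure called 3′ bias here. The Th1 arrays of 12 h were not among the 6.

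Cxcr6, the receptor for the membrane-bound chemokine Cxcl16, and Ccr1, a receptor for Ccl3 and Ccl5, had the highest signal of the 8 genes. The brightest Cxcr6 probe set averaged 11.48 over the 14 arrays and that of Ccr1 averaged 9.37. The brightest probe sets of Ccr2 (8.05) and Cxcr3 (7.82) came next, followed by Cxcr4 (6.75), Ccr7 (6.45), Ccr8 (6.38) and Ccr4 (5.86). These are intensities of different probe sets, so they do not order the genes by transcript number. All 13 probe sets passed the filter on low signal, but 2 of the 4 for Ccr2 were dim. Probe set 1421188_at was above the array median in 2 arrays and 1460067_at in 6. Signal over background therefore limits what those 2 show.

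**Figure D1:**
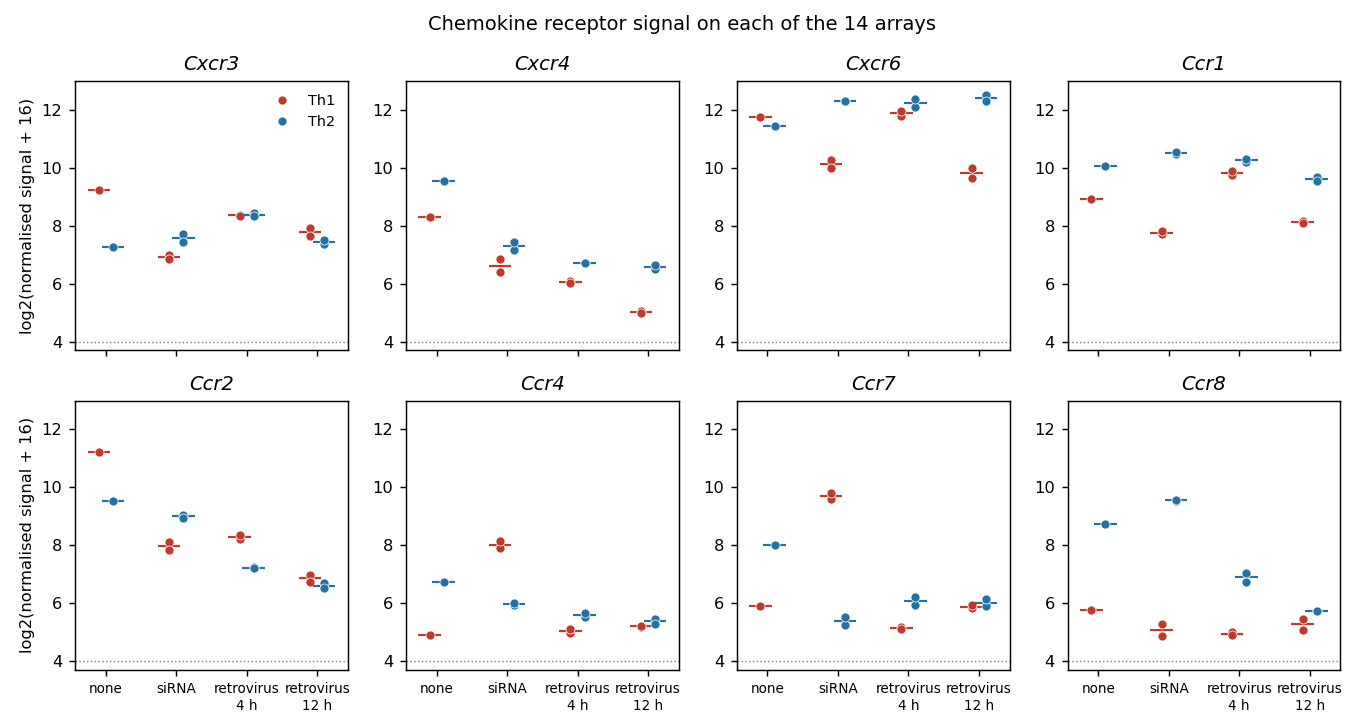
Signal of the brightest probe set of each of the 8 receptor genes, as log2 of the normalised intensity plus 16, on the 14 arrays grouped by treatment. Each point is 1 array, short bars are means and the dotted line is the floor at 4. Ccr8 and Ccr1 were higher in Th2 cells in every group, and Ccr4 and Ccr7 were highest in the 2 Th1 siRNA arrays.

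Of the receptors, 4 genes (5 of 13 probe sets) were lower in Th1 than in Th2 cells and none was higher. These were Ccr8, Ccr1, Cxcr6 and Cxcr4. Cxcr3, Ccr2, Ccr4 and Ccr7 did not pass the test. Over all 29467 probe sets tested with limma across the 7 pairs of arrays, 9.79 percent passed at a Benjamini-Hochberg adjusted p under 0.05, and 6.14 percent passed as lower in Th1. The median difference was 0.11 over the 13 probe sets, -0.44 over the brightest probe set of each of the 8 genes and 0.01 over all that were tested. On the deposited, unnormalised values the split of all calls moved from 1076 higher and 1808 lower in Th1 to 783 higher and 2338 lower.

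Ccr8, the receptor for Ccl1, stayed near the median of the array in Th1 cells, at 4.85 to 5.75 with a median of 5.08. In Th2 cells it read 8.73 untreated, 9.54 with Thy1 siRNA, 9.56 with Trpm4 siRNA, 7.04 with vector at 4 h, 6.74 with DN Trpm4 at 4 h, and 5.72 and 5.73 at 12 h. In deposited signal the siRNA arrays were 895 and 930 in Th2 cells against 22.5 and 13.02 in Th1 cells. The cell types overlapped only through the Th2 arrays of 12 h, whose values lay just below that of the untreated Th1 array. The difference was -2.39 ± 0.51 (SE, 7 pairs, adjusted p 0.0190 in limma), lower in Th1 in all 7 pairs, with pair differences from -0.29 at 12 h to -4.71 with Trpm4 siRNA. As the Th1 values were this low, its size depended on the constant added before log2, at -2.99 with 1 and -1.63 with 64 added, and no fold is given.

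Ccr1, a receptor of inflamed tissue that Ccl3 and Ccl5 bind, was lower in Th1 on both of its probe sets. On 1419609_at the Th1 arrays read 8.91 untreated, 7.70 and 7.82 with siRNA, 9.76 and 9.90 at 4 h, and 8.16 and 8.10 at 12 h. The Th2 arrays read 10.06, then 10.47 and 10.56, then 10.22 and 10.30, then 9.69 and 9.56. The 2 groups overlapped only where the Th1 arrays of 4 h, at 9.76 and 9.90, reached the Th2 arrays of 12 h, at 9.69 and 9.56. The difference was -1.50 ± 0.30 (adjusted p 0.0146) on 1419609_at and -1.44 ± 0.23 (0.00467) on 1419610_at in limma, with all 7 pairs lower in Th1 on both. Without the 12 h pairs, where the Th2 arrays alone had the 3′ bias, 1419609_at kept -1.50 but had an adjusted p of 0.0852.

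Cxcr4, the receptor for Cxcl12, which holds and recruits many leukocytes, was lower in Th1 in all 7 pairs. Th1 arrays read 8.32 untreated, 6.39 and 6.86 with siRNA, 6.09 and 6.03 at 4 h, and 5.04 and 4.99 at 12 h. Their Th2 partners read 9.56, then 7.16 and 7.42, then 6.72 and 6.71, then 6.52 and 6.65. Treatment moved the level more than cell type did, so the cell types overlapped as groups while every Th1 array lay below its partner. The difference was -1.004 ± 0.16 (adjusted p 0.00596 in limma with the pair as a block), and without the block it had an adjusted p of 0.449.

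The 2 probe sets of Cxcr6 gave different answers. On 1422812_at the Th1 arrays read 11.74 untreated, 10.28 and 10.01 with siRNA, 11.80 and 11.96 at 4 h, and 9.65 and 9.98 at 12 h. The Th2 arrays lay within 11.44 to 12.51 throughout, so only the untreated and 4 h Th1 arrays reached them. The difference was -1.42 ± 0.38 (adjusted p 0.0449 in limma, 6 of 7 pairs lower in Th1). On 1425832_a_at it was -0.75 ± 0.33 (adjusted p 0.174, 5 of 7 pairs lower). The siRNA pairs differed alike on both, at -2.03 and -2.31 on the former and -2.29 and -2.19 on the latter. The 12 h pairs did not, at -2.86 and -2.32 against -0.25 and 0.09. The call for 1422812_at was lost in 13 of 17 alternatives, among them the fit without the 12 h pairs (-0.95, adjusted p 0.221) and those that left out either siRNA pair, either 12 h pair or the DN Trpm4 pair of 4 h (adjusted p 0.0566 to 0.118).

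Within an array, Cxcr6 1422812_at exceeded 1425832_a_at by 2.10 to 2.51 in the 6 arrays with the 3′ bias and by -0.56 to 0.02 in the other 8. In deposited signal that is a ratio of 4.06 to 5.09 against 0.63 to 1.01, with no overlap. For Ccr2, the receptor for Ccl2, the difference of 1421186_at over 1421187_at was 1.27 to 2.56 against 0.45 to 1.52, which overlap. For Ccr1 the difference between its probe sets was 2.59 to 2.95 against 2.37 to 2.97, so it was alike in both kinds of array. How much the 3′ bias contributes to a difference between biased and other arrays was not tested on any single probe set.

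**Figure D2:**
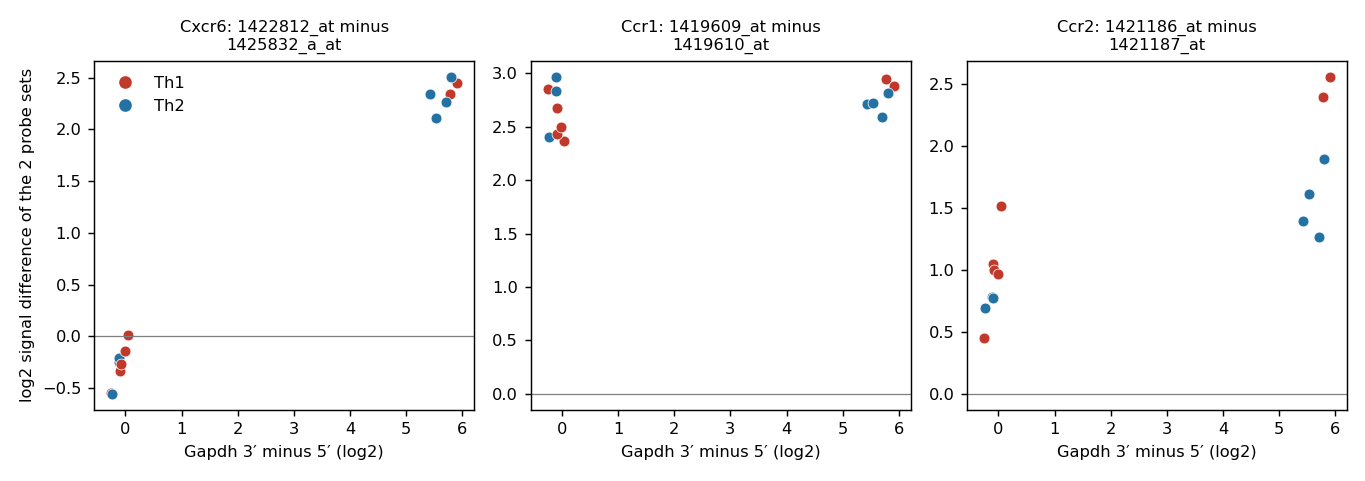
Difference in log2 signal between 2 probe sets of the same gene (vertical axis, for Cxcr6, Ccr1 and Ccr2) against the log2 difference of the 3′ and 5′ control probe sets of Gapdh (horizontal axis). Each point is 1 of the 14 arrays, coloured by cell type. The 6 arrays at 5.43 or more on the horizontal axis stand apart for Cxcr6 and not for Ccr1.

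Cxcr3, the receptor for the interferon-induced chemokines Cxcl9, Cxcl10 and Cxcl11, was 0.19 ± 0.28 higher in Th1 and did not pass (adjusted p 0.702 in limma). Th1 arrays read 9.23 untreated, 6.99 and 6.85 with siRNA, 8.38 and 8.34 at 4 h, and 7.93 and 7.65 at 12 h. The Th2 arrays read 7.27, then 7.72 and 7.44, then 8.43 and 8.35, then 7.36 and 7.49. The untreated pair differed by 1.96 in favour of Th1, the siRNA pairs by -0.74 and -0.59, and the rest by -0.04 to 0.57. Without the untreated pair the difference was -0.11. Of 4 measured markers of CD8 T and natural killer cells, the untreated Th1 array was highest for Cd8a and Ncr1. It was not highest for Cd8b1 (5.41) or Eomes (7.63), and the part of such cells in it was not tested.

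Ccr2 was likewise highest in the untreated Th1 array, at 11.23 on 1421186_at (deposited signal 2055) against 9.52 (635) in the untreated Th2 array. With siRNA it read 8.12 and 7.84 in Th1 and 9.06 and 8.95 in Th2 cells, and with retrovirus 6.74 to 8.36 in Th1 and 6.52 to 7.23 in Th2 cells. It was thus lower in Th1 in the siRNA pairs (-0.94 and -1.11) and higher in Th1 in the retrovirus pairs (0.22 to 1.17). Over the 7 pairs the 4 Ccr2 probe sets differed by 0.11 to 0.33, and none passed (adjusted p 0.453 to 0.872 in limma).

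Ccr4, the receptor for Ccl17 and Ccl22, and Ccr7, the receptor for Ccl19 and Ccl21, changed order with treatment. Ccr7 read 9.59 and 9.81 in the Th1 siRNA arrays (deposited signal 849 and 1079) and 5.24 and 5.53 in the Th2 siRNA arrays (24.4 and 32.1). In the untreated arrays the order was the opposite, with 5.91 in Th1 and 7.998 in Th2 cells. In the 8 retrovirus arrays it lay between 5.10 and 6.20. Ccr4 was likewise highest in the Th1 siRNA arrays and higher in the untreated Th2 than the untreated Th1 array, with 7.90 and 8.13 in Th1 siRNA arrays, 5.94 and 6.02 in Th2 siRNA arrays, 4.90 and 6.73 in the untreated Th1 and Th2 arrays, and 4.96 to 5.64 with retrovirus.

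For both Ccr4 and Ccr7 the siRNA pairs and the other 5 pairs therefore had opposite signs. Ccr7 differed between cell types by 4.35 and 4.28 in the siRNA pairs and by -2.08 to -0.05 in the other 5. Ccr4 differed by 1.96 and 2.11 in the siRNA pairs and by -1.84 to -0.05 in the others. Over all 7 pairs neither passed in limma (Ccr7 0.63 ± 0.77, adjusted p 0.629; Ccr4 0.11 ± 0.43, adjusted p 0.887). Without the siRNA pairs both were lower in Th1, by values that did not pass either (Ccr7 -0.84, adjusted p 0.129; Ccr4 -0.65, adjusted p 0.166).

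**Figure D3:**
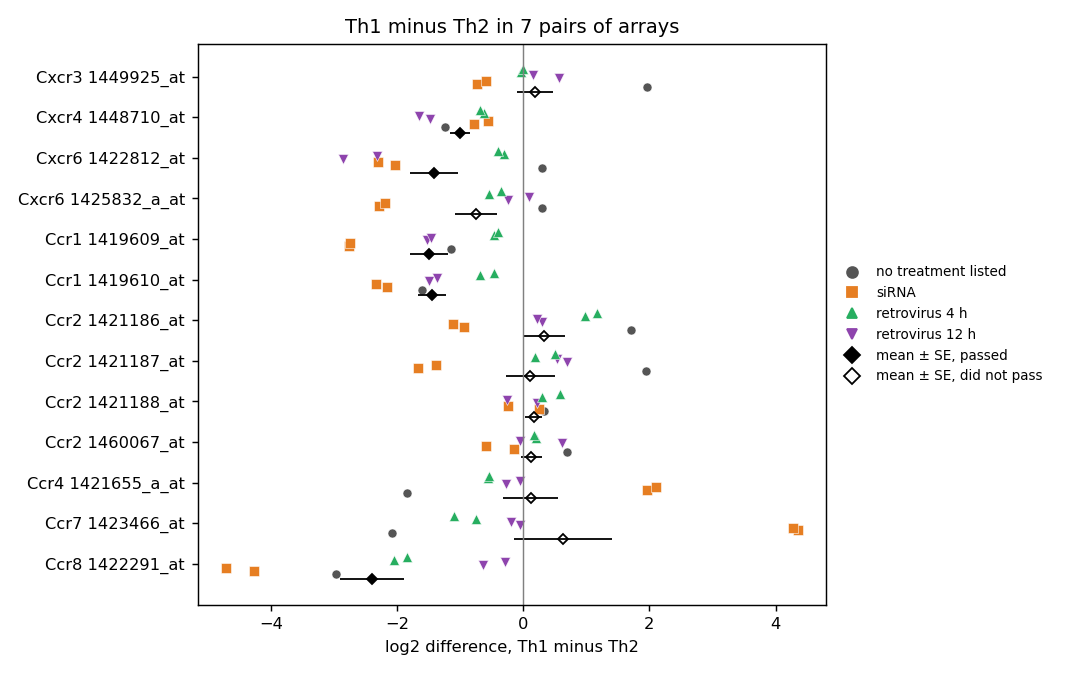
Difference in log2 signal between Th1 and Th2 arrays (horizontal axis) for the 13 probe sets of the 8 receptors. Small symbols are the 7 matched pairs by treatment, and diamonds are the mean with its SE from limma, filled where the adjusted p was under 0.05. All 7 pairs lie below 0 for Cxcr4, Ccr1 and Ccr8, and the siRNA pairs lie on the other side of 0 from the rest for Ccr4 and Ccr7.

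Arrays of the same cell type and treatment set resembled each other, so the 7 pairs are not independent. With 1 average per cell type and set (4 pairs) the differences were -2.47 for Ccr8, -1.46 for both Ccr1 probe sets, -1.20 for Cxcr6 1422812_at and -1.03 for Cxcr4. None of these 5 probe sets then passed in limma, with adjusted p of 0.132 for Ccr8, 0.149 and 0.0771 for Ccr1, 0.358 for Cxcr6 and 0.115 for Cxcr4. That fit called 271 of the 29467 probe sets.

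The siRNA arrays were also set beside the untreated array of their cell type, as a description with no test, since each difference shares that 1 untreated array. In Th1 cells Ccr7 was higher with siRNA by 3.68 and 3.90 and Ccr4 by 3.004 and 3.24, while Ccr2 1421186_at differed by -3.11 and -3.39 and Cxcr3 by -2.24 and -2.38. In Th2 cells Ccr7 differed by -2.75 and -2.46, Ccr4 by -0.79 and -0.71, Ccr2 by -0.46 and -0.57 and Cxcr3 by 0.46 and 0.17. Cxcr4 was lower with siRNA in both cell types, by -1.93 and -1.46 in Th1 and -2.40 and -2.14 in Th2 cells. The Thy1 and Trpm4 siRNA arrays differed from the untreated array in the same direction in each of these cases, with the widest gap between them for Cxcr4 in Th1 cells. The untreated Th1 array, on which the Th1 values rest, was also the highest of the 14 arrays for Cd8a (8.55, next 7.38) and for Ncr1, a natural killer cell gene (7.23, next 5.17). Ncr1 did not pass the filter on low signal. The other measured markers of such cells were not highest there. Cd8b1 read 5.41 in that array and 5.86 to 6.68 in the other arrays without virus. Eomes read 7.63 there and 9.32 and 9.37 in the Th2 siRNA arrays. The part of such cells in the Cxcr3, Ccr2 and other values of that array was not tested.

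The stretches before the start sites are shown for Ccr8, which was lower in Th1 cells in all 7 pairs, and for Ccr1 and Cxcr6. The brightest probe sets of these last 2 genes had a Pearson correlation of 0.90. It was not computed on Cxcr6 1425832_a_at, which was lowest (9.45) in the Th1 vector array of 4 h, where Ccr1 1419609_at read 9.76. They are the 250 bases upstream of the annotated start on the strand of the gene (RefSeq, GRCm38.p6). Capitals mark GATA, the core read by the Th2 factor Gata3, on either strand (TATC is its reverse complement). Gata3 itself differed by -2.92 ± 0.12 between Th1 and Th2 cells (adjusted p 2.16e-06 in limma). Ccr8 is at chr9:120091883-120092132 on the plus strand, Ccr1 at chr9:123968693-123968942 on the minus strand and Cxcr6 at chr9:123806227-123806476 on the plus strand.
Ccr8: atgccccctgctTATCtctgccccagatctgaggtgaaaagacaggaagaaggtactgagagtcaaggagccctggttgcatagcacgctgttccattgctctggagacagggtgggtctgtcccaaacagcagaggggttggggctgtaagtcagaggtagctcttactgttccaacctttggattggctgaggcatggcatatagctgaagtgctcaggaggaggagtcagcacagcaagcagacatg
Ccr1: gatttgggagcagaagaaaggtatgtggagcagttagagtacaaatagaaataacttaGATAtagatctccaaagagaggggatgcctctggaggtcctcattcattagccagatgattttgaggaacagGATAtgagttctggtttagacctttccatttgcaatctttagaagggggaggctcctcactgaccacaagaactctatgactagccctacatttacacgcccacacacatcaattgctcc
Cxcr6: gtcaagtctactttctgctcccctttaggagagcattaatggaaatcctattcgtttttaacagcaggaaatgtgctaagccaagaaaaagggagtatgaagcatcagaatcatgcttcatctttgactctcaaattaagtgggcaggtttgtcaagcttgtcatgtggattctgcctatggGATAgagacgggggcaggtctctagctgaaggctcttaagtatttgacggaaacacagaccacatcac
Ccr8 and Cxcr6 have 1 match each and Ccr1 has 2. GATA is in 53.6 percent of 32851 promoter stretches of this length, so a match is common and is only a description. The same windows hold GGAAA, the core bound by NFAT factors, 3 times in Cxcr6, 1 time in Ccr1 and 0 times in Ccr8 (on either strand, in 55.6 percent of all stretches). In all, 7 of the 8 genes had an entry. Of the 8 genes, 5 are on chromosome 9. Cxcr6, Ccr1 and Ccr2 are close together there, at positions 1187, 1189 and 1192 in the order of its protein-coding genes in that assembly.

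Inhibition of Trpm4 left the receptors with small differences that did not pass the test. Across the 6 pairs (Trpm4 siRNA against Thy1 siRNA, and DN Trpm4 against vector at each time), the 13 probe sets differed by -0.11 to 0.17. With limma, 0 percent of the 29467 probe sets passed, and 1733 had an unadjusted p under 0.05, of which 1 was a receptor probe set. That was Ccr7, at 0.17 ± 0.07 (unadjusted p 0.0391, adjusted p 0.825), higher in 5 of 6 pairs.

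Ccr7 differed with inhibition by 0.22 in Th1 siRNA arrays, 0.29 in Th2 siRNA arrays, 0.09 and -0.08 in Th1 retrovirus arrays at 12 h and 4 h, and 0.24 and 0.27 in Th2 retrovirus arrays. Cxcr3 was lower in 5 of 6 pairs, with a mean of -0.11 ± 0.08 (adjusted p 0.881). Cxcr4 was 0.47 and 0.26 higher in the siRNA pairs and between -0.06 and 0.13 in the retrovirus pairs. Ccr8 in Th2 cells differed by 0.022 with siRNA, where it read 9.54 and 9.56, by -0.30 at 4 h, and by 0.0098 at 12 h, where it was near the array median.

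The effect of inhibition was also compared between Th1 and Th2 cells. None of the 29467 probe sets passed in limma (1032 had an unadjusted p under 0.05), and the receptors ranged from -0.38 for Ccr2 1460067_at, a dim probe set, to 0.21 for Cxcr6 1425832_a_at. No receptor probe set had an unadjusted p under 0.05 there.

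**Figure D4:**
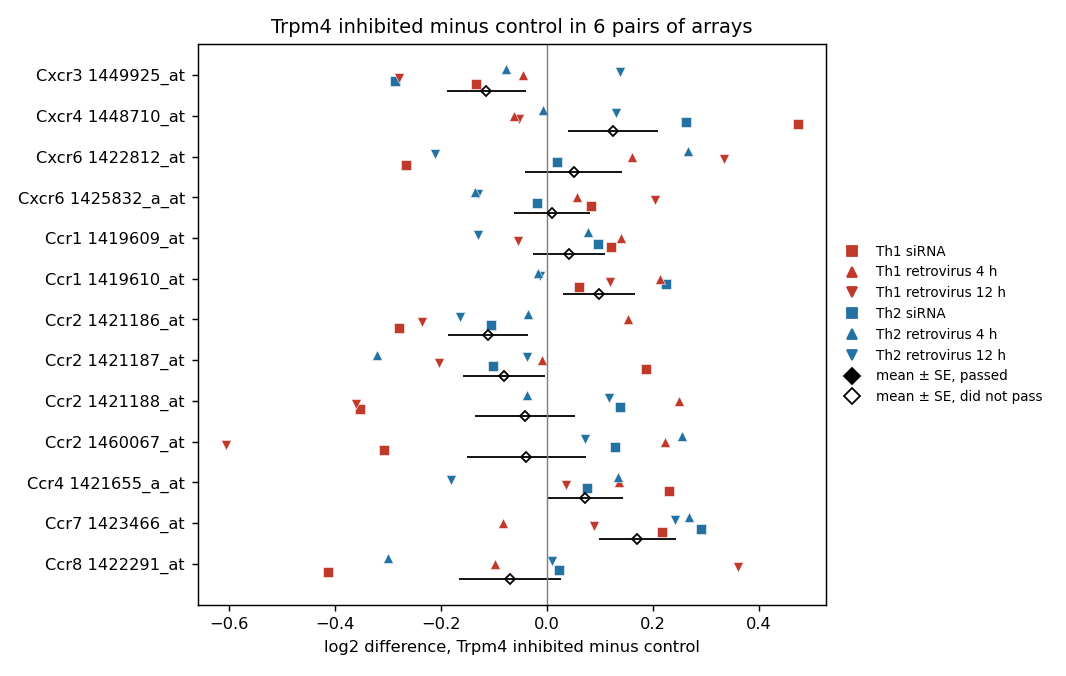
Difference in log2 signal between arrays with Trpm4 inhibited and their controls (horizontal axis) for the 13 probe sets. Small symbols are the 6 matched pairs by cell type and method, and open diamonds are the mean with its SE from limma, none of which passed. Means lie between -0.11 and 0.17.

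In the retrovirus arrays several receptors were lower at 12 h than at 4 h, but none passed over the 4 pairs. Over all probe sets 2.01 percent passed in limma, 210 higher and 382 lower at 12 h (90 higher and 453 lower on the deposited values). Cxcr3 came nearest, at 7.93, 7.65, 7.36 and 7.49 at 12 h against 8.38, 8.34, 8.43 and 8.35 at 4 h, with no overlap. Its difference was -0.77 ± 0.15 (adjusted p 0.0625, lower in 4 of 4 pairs). On the deposited values the same difference was -0.91 with an adjusted p of 0.0478.

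Ccr1 at -1.16 ± 0.25 (1419609_at, adjusted p 0.0707) and Ccr2 at -1.02 ± 0.22 (1421186_at, adjusted p 0.0674) were also lower in 4 of 4 pairs in limma. In the Th2 pairs alone, whose 4 arrays all had the 3′ bias, Ccr8 fell by 1.16 (adjusted p 0.00392) and Cxcr3 fell by 0.96 (adjusted p 0.00931). That fit had 1 residual degree of freedom and called 1846 of the 29467 probe sets. Its replicates are the vector and the DN Trpm4 pair. No probe set of the array passed over the 4 pairs when any pair was left out, nor with a pseudocount of 1.

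The change from 4 h to 12 h differed between Th1 and Th2 cells for 7 receptor probe sets of 6 genes, against 38.2 percent of all probe sets in limma. Cxcr6 1422812_at differed by -2.06 on average in Th1 and 0.17 in Th2 cells, Ccr1 1419609_at by -1.69 and -0.63, and Cxcr4 by -1.05 and -0.13. Ccr8 went the other way, at 0.32 in Th1 and -1.16 in Th2 cells, and so did Ccr7, at 0.75 and -0.06. Both lay near the array median of 5.39 in the Th1 retrovirus arrays, Ccr8 at 4.90 to 5.44 and Ccr7 at 5.10 to 5.93. The Th1 arrays of 12 h lacked the 3′ bias that the other 6 retrovirus arrays had, so time and this bias cannot be told apart in Th1 cells. On the other Cxcr6 probe set, 1425832_a_at, the changes were 0.54 in Th1 and 0.17 in Th2 cells, and their difference of 0.37 did not pass (adjusted p 0.170). In the same test 4 of 5 T cell marker genes were higher, with Cd3d at 0.92 and Cd4 at 1.31 (adjusted p 0.00686 and 0.00117), and their part in the receptor values was not tested.

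Retrovirus arrays were set against arrays with no virus on 8 averages of cell type and set. On the brightest probe set of each gene none of the 8 receptors passed. Among all 13 probe sets 3 passed as lower with retrovirus, 2 of Ccr2 and 1 of Cxcr6, against 16.2 percent of all probe sets passing in either direction and 6.55 percent passing as lower in limma. On Ccr2 1421187_at the no-virus arrays read 10.78 and 8.83 untreated, 6.60 and 6.79 in Th1 siRNA and 8.28 and 8.18 in Th2 siRNA arrays. The 8 retrovirus arrays read 5.25 to 5.98, so every one lay below every no-virus array. The difference was -3.03 ± 0.73 (adjusted p 0.0273 in limma).

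The 2 Cxcr6 probe sets differed in sign, at -1.90 ± 0.43 on 1425832_a_at (adjusted p 0.0218 in limma) and 0.17 ± 0.51 on the brighter 1422812_at (0.832). The former is the probe set that was low against the latter in the arrays with the 3′ bias, which are 6 of the 8 retrovirus arrays. Ccr2 1460067_at read 6.05 to 7.11 in the 6 arrays without virus and 4.09 to 4.83 in the 8 with it (deposited signal 1 to 11.9). It was above the array median in the no-virus arrays only, so it passed the filter through the group where it is high, and its call (adjusted p 0.00235) supports nothing about the receptor.

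Other receptors lay near the threshold in the same direction. Ccr2 1421186_at differed by -2.19 ± 0.65 (adjusted p 0.0512 in limma), Cxcr4 by -1.86 ± 0.55 (0.0509) and Ccr8 by -1.57 ± 0.54 (0.0804). Without the Th1 siRNA average all 3 passed (Ccr2 -2.88, Cxcr4 -2.18 and Ccr8 -1.96, adjusted p 0.0109, 0.0368 and 0.0403), Cxcr4 passed without the Th2 siRNA average (0.0265), and Ccr8 without the Th1 retrovirus average of 12 h (0.0492). Over the brightest probe sets of the 8 genes the median difference was -1.29, against 0.03 over all tested. Virus, the listed stimulation and any batch move together in this comparison and cannot be told apart. Among the 5 averages without the 3′ bias only 1 was of retrovirus, so effect sizes alone are given. They were -2.86 for Ccr2 1421187_at, -1.27 for Cxcr6 1425832_a_at, -2.46 for Cxcr4 and -0.14 for Ccr8. With 1 average left out, Ccr2 1421187_at (0.0516 to 0.0867) and Cxcr6 1425832_a_at (0.0535 to 0.0798) each lost the call without Th2 untreated, Th2 siRNA, Th1 retrovirus 4 h, or Th2 retrovirus at either time.

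Some markers of CD8 T and natural killer cells moved with the same contrast. Of 4 such genes measured, 3 were tested, and Eomes (-1.93) was lower with retrovirus (adjusted p 0.0489 in limma). Cd8a (-2.31) and Cd8b1 would not have passed the filter without the no-virus arrays, where they are high, so their calls are not counted. Cd8b1 read 5.41 to 6.68 without virus and 4.21 to 5.12 with it. Eomes read 6.40 to 9.37 in the 6 arrays without virus and 5.25 to 6.33 in the 8 with it. Ncr1, which did not pass the filter, overlapped, at 4.71 to 7.23 without virus and 4.23 to 5.14 with it. Fcer1a, of the mast cell and granulocyte list, read 5.27 to 6.85 without virus and 4.18 to 4.63 with it, and passed the filter through the no-virus arrays only. Ms4a2 of that list went the other way, at 4.27 to 4.67 without virus and 4.80 to 5.37 with it, and did not pass the filter. Summed over the 7 genes of the list, signal overlapped, at 104 to 290 without virus and 83.8 to 174 with it. The part of cells of either list in the levels of Ccr2, Cxcr6 and the other receptors was not tested. The summed signal of 5 T cell genes was 6061 to 15510 without virus and 3768 to 7866 with it. Between Th1 and Th2 cells none of the 3 CD8 T and natural killer or 8 macrophage and dendritic genes tested passed. None of the 4 B cell or 3 mast cell and granulocyte genes tested did. Ikzf2, the 1 regulatory T cell gene tested, was higher in Th1 (1.65, adjusted p 5.41e-04 in limma). Foxp3, the other measured gene of that list, did not pass the filter on low signal. Its median was 5.07 in Th1 and 5.10 in Th2 arrays. The part of regulatory T cells in the receptor values was not tested.

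The difference between cell types in the effect of retrovirus passed for no probe set in limma (492 had an unadjusted p under 0.05). Ccr8 had the highest value among the receptors, at 2.53 ± 0.72 (unadjusted p 0.00856, adjusted p 1.0), and Ccr7 the lowest, at -1.64 ± 1.75.

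The other genes of the pathway were read in the same fits. Of 7 other chemokine receptors tested, none passed between Th1 and Th2 cells, and the atypical receptor Ackr2 was 1.65 higher with retrovirus (adjusted p 0.00589 in limma). Of 13 ligands tested, 3 were higher in Th1 and none lower: Ccl5 by 3.97 ± 0.22, Ccl4 by 1.06 ± 0.19 and Ccl3 by 0.97 ± 0.19 (adjusted p 8.44e-06, 0.00807 and 0.0120). Ccl3 and Ccl5 are ligands of Ccr1, whose own transcript was lower in Th1 cells. Cxcl16, the ligand of Cxcr6, was lower with retrovirus by -2.98 ± 0.27 (adjusted p 0.00127).

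Of 25 genes that carry or end the receptor signal, 1 was higher and 5 were lower in Th1 cells. Pik3r5, a regulatory subunit of the kinase that Gβγ activates, was 2.28 higher (adjusted p 7.25e-04 in limma). The receptor kinase Grk5 (-1.27), phospholipase Plcb3 (-0.97), the tyrosine kinase Ptk2b (-0.84) and the small GTPase Rap1b (-0.63) were lower, with adjusted p from 0.00425 to 0.0321, as was Rac1 at -0.47 (0.0446). The median over the 25 was -0.27, against 0.01 over all probe sets. Among 9 homing and lineage genes Stat4 was higher in Th1 (1.17) and Gata3 lower, while Tbx21, the Th1 factor that acts on Cxcr3, did not pass. No gene of these lists passed for Trpm4 inhibition.

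For the change from 4 h to 12 h, the ligand Ccl5 was higher at 12 h (1.48, adjusted p 0.0437 in limma) and Selplg, a selectin ligand, was lower (-1.77, adjusted p 0.0362). For the difference of that change between Th1 and Th2 cells, 13 of 25 signalling genes passed, 2 higher and 11 lower, with the arrestin Arrb1 at -2.23, the kinase subunit Pik3cg at -1.85 and Rac2 at 1.35. Among the ligands Ccl1, which binds Ccr8, had a value of 4.31, and Ccl5 and Cxcl16 passed at 0.84 and 0.63. As 38.2 percent of all probe sets passed that test, these counts are given beside that share only, and the 3′ bias cannot be told apart from time in Th1 cells here too.

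Over the 14 arrays the receptors fell into patterns that are given as a description. The arrays were normalised together, 6 of them have the 3′ bias, and some may share a culture. On their brightest probe sets Ccr4 and Ccr7 had a Pearson correlation of 0.92, Cxcr6 and Ccr1 of 0.90, and Cxcr3 and Ccr4 of -0.74. The 3 genes outside the list most like each receptor were then taken from all genes tested. They were Arg1, D630039A03Rik and Cd27 for Ccr8 (0.98, 0.96 and 0.95), and Irgm1, Ptk2b and Wdr26 for Ccr1 (0.98, 0.98 and 0.97). Arg1 encodes arginase, and Irgm1 is an interferon-inducible GTPase, as is Ifi47, which led for Cxcr6 before Nptn and Arhgap25 (0.97, 0.96 and 0.94). For Cxcr4 they were Selenom, Fam117a and Galnt6 (0.97, 0.97 and 0.96), and for Ccr2 Gimap6, Sorcs3 and Dock2 (0.96, 0.96 and 0.95). Dock2 activates Rac below chemokine receptors. Ccr4 was most like Stra6, Snx25 and Efcab2 (0.95, 0.95 and 0.94), Ccr7 most like Espn, Gap43 and Brip1 (0.95, 0.94 and 0.93), and Cxcr3 most like Cpn2, Cd164 and Anxa1 (0.90, 0.88 and 0.88).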

How the data were processed

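Total RNA was extracted with Trizol and labelled with biotin for Affymetrix arrays, per the labels' protocols. The deposited values are probe set signals, an intensity on a linear scale, in a table of 14 arrays. The authors' probe summary and array scaling are not described in the labels. Array medians ran from 19.9 to 28.3, so signals were quantile normalised, 16 was added and log2 taken, which understates differences of dim probe sets.

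Of 45101 probe sets, 64 controls were left out of the tests, 1 gene was named for 34958, several for 932 and none for 9211. Those above the median of their array in at least 2 arrays were kept (29467, for 13118 genes). Each comparison was a two-sided limma 3.58.1 test (lmFit, then eBayes; R 4.3.3) with the matched pair as a fixed block, except that retrovirus was tested on 8 averages with cell type as a term. A probe set passed at a Benjamini-Hochberg adjusted p under 0.05 over all that were tested. The fits were run on simulated data with independent noise in each array. That run cannot show how the likeness of arrays of 1 set acts on the calls. The number of arrays limits the precision.

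The receptor genes, pathway lists and marker lists were chosen with earlier results of these data known. Text names every receptor probe set and, of each list, called genes with the largest change, up to 4 in each direction. Rac1 and Tbx21 fall outside that rule and were named after their values were seen. Each list gene was read on its probe set of highest mean. Alternatives were deposited and median-centred values, no filter, pseudocounts of 1 and 64, a variance trend, no pair block, subsets of pairs and each pair left out. Set averages and subsets by siRNA or 3′ bias were added after seeing the data.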

Additional observations from a re-analysis of the deposited data

Results flagged for a closer look

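The change from 4 h to 12 h in the retrovirus arrays differed between Th1 and Th2 cells for 7 receptor probe sets by a test of the difference itself (limma, Th1 minus Th2, 4 pairs, 2 residual degrees of freedom). The differences were -0.91 for Cxcr4 (adjusted p 0.00648), -2.24 for Cxcr6 1422812_at (2.47e-04), -1.06 for Ccr1 1419609_at (0.00397), -0.85 for Ccr1 1419610_at (0.00858), -0.81 for Ccr2 1421186_at (0.0174), 0.80 for Ccr7 (0.0121) and 1.48 for Ccr8 (0.00164). In the Th1 retrovirus arrays Ccr8 read 4.90 to 5.44 and Ccr7 read 5.10 to 5.93, near the array median of 5.39. Of all probe sets, 38.2 percent passed the same test. The vector and DN Trpm4 arrays of a time served as replicates, and the Th1 arrays of 12 h were the only retrovirus arrays without the 3′ bias. With 1 pair left out, Cxcr6 1422812_at and Ccr8 passed each time, while each of the other 5 probe sets lost its call without 1 or both of the Th1 pairs, with adjusted p from 0.0529 to 0.204 there.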

How the results depend on the processing

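Counts of all probe sets that passed moved with the settings. For Th1 minus Th2, 2884 passed, against 837 without the pair block, 1256 without the 12 h pairs, 271 on 4 set averages, and 1450 to 2901 with 1 pair left out. For 12 h minus 4 h, 592 passed, against 0 with a pseudocount of 1, 351 with a variance trend, 6113 without the block, 1846 in the Th2 pairs alone, 0 on 2 set averages and 0 to 0 with 1 pair left out. For the difference of that change between cell types, 11253 passed, and 5845 to 12630 with 1 pair left out. For retrovirus, 4762 passed, against 13326 on 14 single arrays, 0 among averages without the 3′ bias, and 1435 to 7788 with 1 average left out. Among receptors, signs reversed only for values that did not pass. Between Th1 and Th2 cells these were Cxcr3 (-0.11 to 0.34 with 1 pair left out), Ccr2 1421187_at (-0.085 without the 12 h pairs, -0.19 to 0.41 with 1 pair left out), Ccr4 (-0.038 with a pseudocount of 1, -0.65 without the siRNA pairs, -0.13 on set averages, -0.22 to 0.44 with 1 pair left out) and Ccr7 (-0.84 without the siRNA pairs). With Trpm4 inhibited, leaving out 1 pair turned Cxcr6 1422812_at (-0.0062 to 0.11), Cxcr6 1425832_a_at (-0.029 to 0.039), Ccr2 1421188_at (-0.099 to 0.023) and Ccr2 1460067_at (-0.098 to 0.075), and a pseudocount of 1 turned the last (0.073). For 12 h minus 4 h the Th2 pairs alone turned Cxcr6 1422812_at (0.17) and Ccr7 (-0.056), and a pair left out turned Ccr2 1421187_at (-0.14 to 0.032), Ccr2 1460067_at (-0.078 to 0.20) and Ccr4 (-0.097 to 0.10). In its difference between cell types Ccr2 1460067_at turned with a pseudocount of 1 (-0.0026) and with 1 pair left out (-0.31 to 0.52). For retrovirus, averages without the 3′ bias turned Cxcr3 (-0.28), Cxcr6 1422812_at (-1.13), Ccr1 1419609_at (-0.20) and Ccr1 1419610_at (-0.16). Deposited and median-centred values turned Cxcr6 1422812_at (-0.12 and -0.22) and median-centred values Ccr1 1419609_at (-0.053). Leaving out 1 average turned Cxcr3 (-0.17 to 0.75), Cxcr6 1422812_at (-0.19 to 0.64), Ccr1 1419609_at (-0.29 to 0.39) and Ccr1 1419610_at (-0.31 to 0.25), and for its difference between cell types Ccr7 (-3.53 to 0.25). The causes were not tested.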
